A study of Zea mays with 10 samples.

Results

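The genes zmm24 (LOC542038) and ohp1 (LOC542704) encode transcription factors of maize and were followed in leaves of field plants grown with or without a weed. They were represented by 3 of the 19200 elements of a spotted array, element 11646 for zmm24 and elements 11658 and 12451 for ohp1. These were all the elements whose platform annotation gave exactly 1 gene and gave either of these genes, out of 1800 elements with 1 gene name. Both genes had been chosen on their weedy against control ratios in these same arrays, so those ratios are described here without a test.

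MADS box factors such as zmm24 are DNA-binding proteins that act as dimers and larger complexes, and in plants they are best known for setting the identity of meristems and floral organs. The gene ohp1 encodes a basic leucine zipper (bZIP) protein known from the kernel, where it pairs with the bZIP factor opaque2 and binds promoters of zein storage protein genes. Neither family is confined to flowers or kernels, and ratios alone give no level, so neither the amount of these transcripts nor the identity of the leaf tissue could be checked.

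Weedy leaf came from 4 plots sown with velvetleaf, a broadleaf weed, and control leaf from 4 plots cleared of most weeds by hand, all without added water or fertilizer. Leaf of 4 plants was pooled in each plot, and the sources used here name no maize line, leaf position or plant age. On each of 10 arrays 1 weedy and 1 control pool were hybridised together. Weedy leaf was in Cy5 on 5 arrays and control leaf on the other 5. A plot was used on 2 to 4 arrays, so the arrays are not independent. The arrays held between 9965 and 17383 elements with a value, and the SD of the ratios within an array ranged from 0.31 to 0.59.

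The deposited values state neither the numerator channel nor the log base. They were read as log2 of Cy5 over Cy3 and centred on the median of each array. A turned ratio is the centred value with its sign changed on the arrays with control leaf in Cy5, so it is weedy over control on this reading. If the values run Cy3 over Cy5, every turned ratio has the opposite sign. In leaf pools, fewer cells of a type and less RNA per cell cannot be told apart.

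On this reading the zmm24 element had a negative turned ratio on every array, and the elements of ohp1 stood apart from each other in their values. Element 11646 of zmm24 had a fitted turned log2 ratio of -0.40 (SE 0.09, 10 arrays). Element 11658 of ohp1 stood at 0.63 (SE 0.18, 10 arrays) and element 12451 of the same gene at 0.05 (SE 0.11, 9 arrays). Over all 16201 elements tested the median turned log2 ratio was 0.01 and the median size was 0.104. The elements 11646 and 11658 were thus among the larger ratios of the array, larger in size than 97.5% and 99.8% of the elements tested, which is how they came to be described. Element 12451 was larger in size than 23.7% of them.

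**Figure D1:**
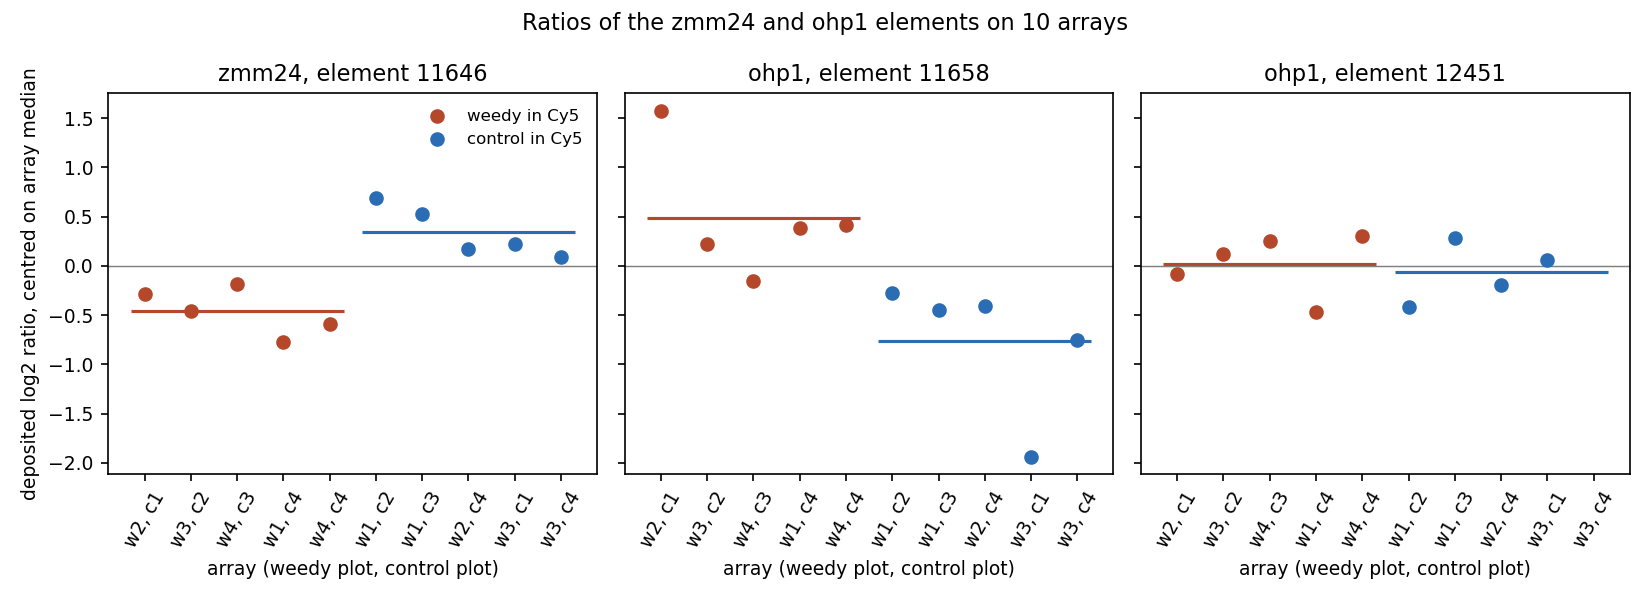
Centred log2 ratio (read as Cy5 over Cy3) of each zmm24 and ohp1 element on each array, with arrays labelled by weedy plot (w) and control plot (c), and a line at the mean of each dye orientation. The zmm24 values lie between -0.78 and -0.18 with weedy leaf in Cy5 and between 0.09 and 0.69 with control leaf in Cy5, while the values of ohp1 element 12451 lie on both sides of 0 in both orientations.

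For zmm24, the arrays with weedy leaf in Cy5 gave centred log2 ratios of -0.28, -0.46, -0.18, -0.78 and -0.59 on arrays 1 to 5. With control leaf in Cy5 the values were 0.69, 0.52, 0.17, 0.22 and 0.09. The orientations did not overlap, and the turned ratio was negative on 10 of 10 arrays. Of the 9486 elements with a value on all arrays, 0.685% were negative on all 10 and 1.74% had all 5 arrays with weedy leaf in Cy5 below all 5 with control leaf in Cy5. These shares come from the contrast on which zmm24 was chosen and are given as background. The turned ratio averaged -0.46 ± 0.24 with weedy leaf in Cy5 and -0.34 ± 0.25 with control leaf in Cy5 (SD, n = 5 each). Its spread around the fit was modest, with a residual SD of 0.235 on the log2 scale, against a median of 0.305 over all tested elements.

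For ohp1 element 11658, the arrays with weedy leaf in Cy5 gave centred log2 ratios of 1.58, 0.22, -0.15, 0.38 and 0.41 on arrays 1 to 5. With control leaf in Cy5 they were -0.28, -0.44, -0.40, -1.94 and -0.75. The orientations did not overlap here either, with array 3 of the first orientation the closest to the other group, and the turned ratio was positive on 9 of 10 arrays. All 5 arrays with weedy leaf in Cy5 lay above all 5 with control leaf in Cy5 at 2.2% of the 9486 elements. The spread was large, with a residual SD of 0.634 that exceeded that of 95.6% of the elements tested. The turned ratio averaged 0.49 ± 0.65 with weedy leaf in Cy5 and 0.76 ± 0.68 with control leaf in Cy5 (SD, n = 5 each).

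Element 12451 of ohp1 showed no such separation. Its centred log2 ratios were -0.08, 0.12, 0.25, -0.47 and 0.30 with weedy leaf in Cy5. With control leaf in Cy5 they were -0.41, 0.28, -0.19 and 0.07, and array 5 of that orientation had no value. The groups overlapped over most of their range, and the turned ratio was positive on 5 arrays and negative on 4. The residual SD of 0.303 was close to the median of all tested elements.

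The mean over the ohp1 elements with a value on each array gave a fitted turned log2 ratio of 0.37 (SE 0.11). On array 5 with control leaf in Cy5 it rests on element 11658 alone, and without that array the fitted ratio was 0.34. That mean joins an element with a large ratio to one near 0. Over the 9 arrays with both values the elements had a Pearson correlation of -0.121, as a description over arrays that share pools. Among 3933 pairs of elements annotated to the same gene, from 269 genes, the median correlation was 0.132 and the quartiles were -0.175 and 0.447. With 1 value per gene, the median was 0.080, and the gene's median pair was below 0 at 37.2% of genes. Weak likeness between elements of 1 gene was thus common on these arrays. The elements carry different expressed sequence tags, and whether either also binds transcripts of related genes was not tested.

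**Figure D2:**
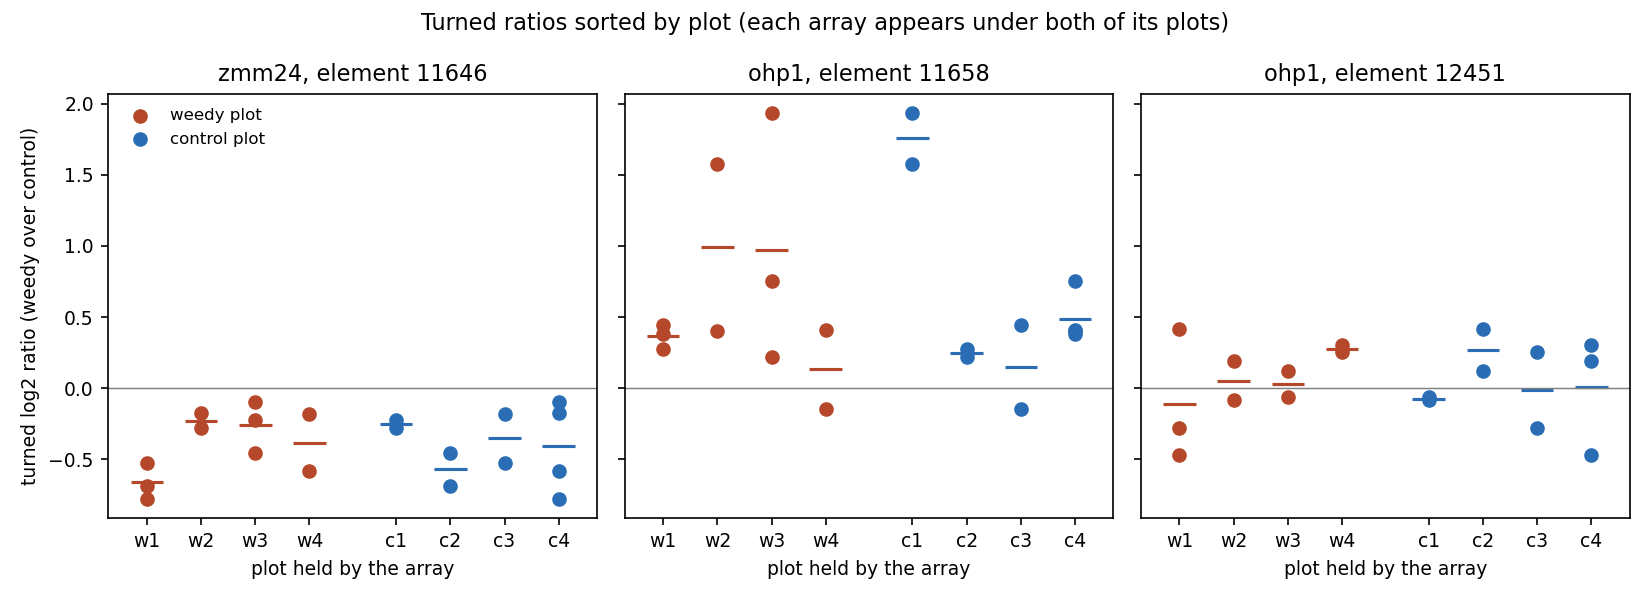
Turned log2 ratio of each array, drawn under its weedy plot (w1 to w4) and again under its control plot (c1 to c4), with a line at the mean. For ohp1 element 11658 the arrays that hold control plot 1 stand at 1.58 and 1.94, above every other array, and for zmm24 the arrays that hold weedy plot 1 average -0.66.

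The ratio of ohp1 element 11658 leaned on a single plot. Both arrays that hold control plot 1 had the highest turned log2 ratios, at 1.58 with control plot 1 in Cy3 and 1.94 with it in Cy5, whereas the other 8 arrays lay between -0.15 and 0.75 with a mean of 0.34. With control plot 1 left out, the fitted ratio was 0.33, against 0.63 with all arrays. The values were high in both dye orientations and with 2 different weedy plots on the other side. When each plot was given its own fixed effect, control plot 1 stood at -1.43 relative to the mean of the 8 plots, and the other plots lay between -0.17 and 0.46. That fit has nearly as many terms as arrays and gave no errors. Its effects restate the array values above and are no further evidence. On the arrays that hold control plot 1, element 12451 had turned log2 ratios of -0.08 and -0.07, and the mean of the elements next to 11658 in the table was -0.0015 and -0.07.

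For zmm24 the most negative plot was weedy plot 1. Its 3 arrays had turned log2 ratios of -0.78, -0.69 and -0.52, with a mean of -0.66, and the other 7 arrays lay between -0.59 and -0.09 with a mean of -0.29. The groups of arrays overlapped, as array 5 with weedy leaf in Cy5, from weedy plot 4, stood at -0.59. Arrays with weedy plots 2, 3 and 4 averaged -0.23, -0.26 and -0.38. Among the control plots the means ran from -0.57 for control plot 2 to -0.25 for control plot 1. Without weedy plot 1 the fitted ratio was -0.27, and without any other plot it lay between -0.44 and -0.35. In the fit with fixed plot effects, weedy plot 1 stood at -0.52 and the other weedy plots at 0.0007, -0.03 and -0.21, with the control plots at 0.24, 0.30, -0.0073 and 0.22. These effects too have no errors and come from nearly as many terms as arrays.

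The dye term of the same fit had not been used to choose the genes and could be tested. It measures how far a ratio leans to Cy5 whatever the treatment, and it takes the place of the treatment term if the authors had already turned their values by treatment. The dye term was -0.06 (SE 0.08, limma adjusted p = 0.831) for zmm24 element 11646. It was -0.13 (SE 0.17, limma adjusted p = 0.809) for ohp1 element 11658 and -0.03 (SE 0.10, limma adjusted p = 0.947) for element 12451. None passed the threshold of 0.05, and by the same test 0% of all elements did, with 9.49%, or 1538, at an unadjusted p under 0.05. On the reading as already turned, the ratios of zmm24 and of element 11658 would be -0.058 and -0.14, so the separation between treatments described above belongs to the Cy5 over Cy3 reading or its mirror image.

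**Figure D3:**
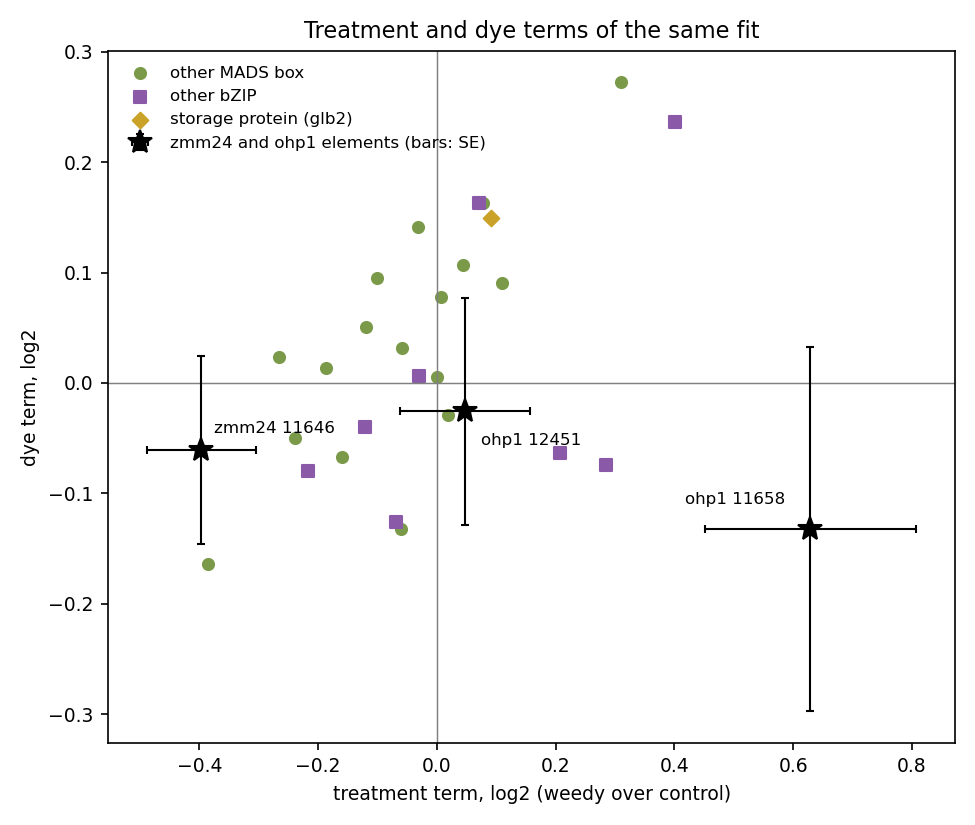
Treatment term (horizontal) against dye term (vertical), both on the log2 scale, for the zmm24 and ohp1 elements (stars, bars are SE) and for tested elements of the other listed MADS box, bZIP and storage protein genes. The stars for zmm24 and ohp1 element 11658 lie at -0.40 and 0.63 on the treatment axis and within 1 SE of 0 on the dye axis.

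Among the other MADS box genes of the fixed list, 11 of 17 tested elements had a negative turned log2 ratio and 6 a positive one. Over all tested elements 7522 of 16201 were negative. The median of the listed elements was -0.06, against 0.01 over all tested elements. Element 7704 of zmm31 (LOC542040) was the lowest, at -0.39 (SE 0.11, limma adjusted p = 0.258), with a negative value on 8 of its 9 arrays. Of the same gene, 11019 and 10966, stood at -0.16 and -0.06, and element 18924 had values on too few arrays. None of the MADS box elements passed the threshold, which 0.0123% of all 16201 elements did. At an unadjusted p under 0.05 there were 3 of 17, 2 of them negative, against 12.1% of all elements.

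Several of the other listed members of the family are known mainly from flowers. ZAG1 (LOC542244), related to the floral gene AGAMOUS of Arabidopsis, had a turned log2 ratio of -0.27 at element 13650, negative on 9 of 10 arrays. Element 656 of ZAG1 had values on too few arrays to be tested, and of its 8 values 4 were positive and 4 negative. Elements of bde1 (LOC542256), which shapes floral meristems in the ear and tassel, stood at -0.24 and -0.10. Those of zmm16 (LOC542019), a gene of the petal and stamen class, were at -0.19, 0.01 and 0.08. For zap1 (LOC542257), related to APETALA1 of Arabidopsis, the 4 elements ranged from -0.06 to 0.31. The single tested elements of zag2 (LOC542325), zmm29 (LOC542020), zmm27 (LOC542506) and m28 (LOC542045) were at -0.12, -0.03, 0.02 and 0.04. With 4 genes added after the annotation had been seen (m4, m20, m26 and M8), 9 more elements were tested. Of these, 6 were positive and 3 negative, with a median of 0.02 and 0 at an unadjusted p under 0.05.

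Other bZIP genes lay on both sides, with 4 of 8 elements positive and a median of 0.02. The partner of ohp1 in the kernel, opaque2 (o2, LOC542375), had a turned log2 ratio of 0.28 (SE 0.12, limma adjusted p = 0.365), positive on 8 of 10 arrays. The close relative of ohp1, ohp2 (LOC542237), was at -0.03 (SE 0.09) and was positive on 4 of 10 arrays. Elements of lip15 (LOC542700), a factor named for its induction by low temperature, were at 0.07 and 0.21. The elements of OBF1, a factor named for binding ocs elements, disagreed, with 7327 at 0.40 and positive on 8 of 10 arrays and 5794 at -0.22 and negative on 9 of 9. Its other elements were at -0.07 and -0.12. None of the 8 bZIP elements passed, and 3 had an unadjusted p under 0.05, against the background of 12.1% given above. Added after the annotation had been seen, lg2 (LOC541670) and mEmBP-1a (LOC542466) stood at -0.16 and 0.23, neither past the threshold.

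None of the elements of storage protein genes, a class that holds targets of opaque2 and ohp1 in the kernel, passed the threshold. The fixed list held glb2 (LOC542382), a globulin, at 0.09 (SE 0.12, limma adjusted p = 0.784), positive on 5 of 10 arrays. The zein genes gz27 and dzs18, added after the annotation had been seen, stood at 0.05 (SE 0.11) and -0.23 (SE 0.18). Over the MADS box, bZIP and storage lists as fixed, 6 of 26 tested elements (23.1%) had an unadjusted p under 0.05, against 12.1% of all elements. The fixed lists missed the genes added later, and with those genes the count was still 6, of 39 tested elements. Of the 6, 3 lay in each direction, and 0 listed elements passed in limma after adjustment. For the fixed lists, that count of 6 was 0 of 25 with 1 value per plot and 1 of 26 on the reading as already turned. It was 1 of 28 without weedy plot 3 and 2 of 28 without weedy plot 1. Without control plot 1 it was 3 of 26, and without control plot 4 it was 3 of 28. Counts over all tested elements also fell in these settings, from 1964 of 16201. They were 208 of 13825 with 1 value per plot and 1472 of 16201 on the reading as already turned. Without weedy plot 3 they were 817 of 17268, and without weedy plot 1 they were 1151 of 17190. Without control plots 1 and 4 in turn they were 1315 of 16342 and 1326 of 17249.

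The elements for zmm24 and for ohp1 with opposite ratios lay 12 places apart in the table, while the other ohp1 element lay 793 places further on. Elements 12 places apart had a median Pearson correlation of 0.268 between their centred ratios over the array as a whole. No other distance was computed, so the part of table position in that value was not tested. The elements next to each zmm24 and ohp1 element were then examined. Among the 20 tested elements within 10 places of zmm24, 14 had a negative treatment term, with a median of -0.07 and a range from -0.35 to 0.23. Around element 11658, 14 of 19 were negative, with a median of -0.08, and the highest was 0.14. Around element 12451, 12 of 20 were negative, with a median of -0.04. Over all tested elements, 7522 of 16201 were negative. The stretches around zmm24 and element 11658 overlap and share elements, so their counts are not separate observations.

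**Figure D4:**
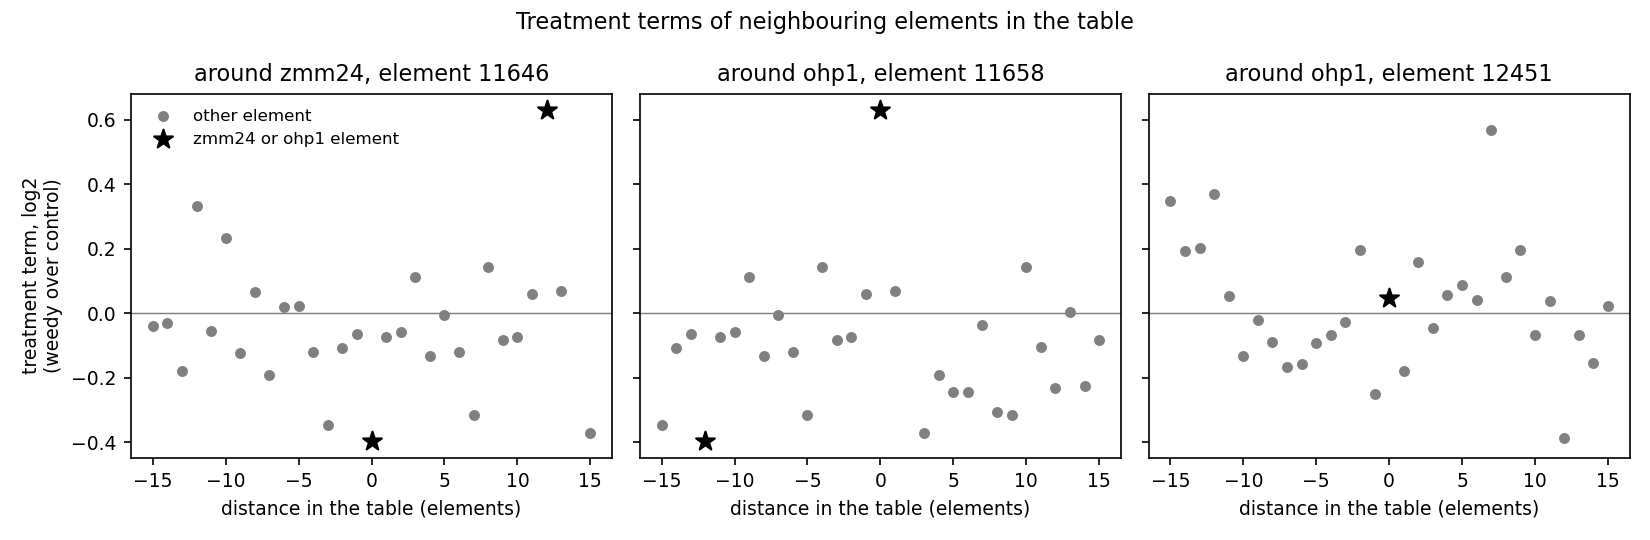
Treatment term (log2, weedy over control) of elements up to 15 places away in the table, around each zmm24 and ohp1 element. The zmm24 element at -0.40 lies below all elements within 10 places of it, and ohp1 element 11658 at 0.63 lies above all those within 10 places of it. Both genes were chosen on this term and their neighbours were not, so their standing beyond the neighbours is a description and no test.

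After the mean of its neighbours was subtracted on each array, zmm24 had a ratio of -0.34 and element 11658 had 0.71. Over 10 arrays the centred ratios of zmm24 had a Pearson correlation of 0.572 with the mean of its neighbours, and those of element 11658 had -0.197. The part of table position in either ratio was not tested beyond these values. The centred ratios of elements 11646 and 11658 had a Pearson correlation of -0.543 over 10 arrays. These arrays share plots, and centred ratios carry the contrast on which both genes were chosen.

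The named genes whose centred ratios most resembled those of zmm24 over the 10 arrays, out of 394 with values on all of them, were DWF1 (LOC542549), pk4 (LOC541785) and gst10 (LOC541828). DWF1 is named after an enzyme of brassinosteroid synthesis in Arabidopsis, and gst10 is a glutathione transferase. Their Pearson correlations with zmm24 were 0.892, 0.879 and 0.856, and the Spearman values were 0.964, 0.879 and 0.867. The least alike was the peroxidase PRX2 (LOC542571), at a Pearson correlation of -0.884 (Spearman -0.891). The nearest elements of these genes lay 3980, 3133, 256 and 7382 places away.

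For the mean of the ohp1 elements the most alike were LOC100101527, the aquaporin PIP2-6 (LOC541891) and NRH2b (LOC542168), with Pearson correlations of 0.876, 0.819 and 0.795 and Spearman values of 0.867, 0.891 and 0.673. The least alike was gpt (LOC542599), at -0.900 (Spearman -0.939). Their nearest elements lay 6618, 6622, 141 and 9947 places away. The median Pearson correlation over all 394 genes was -0.115 with zmm24 and 0.102 with ohp1. The centred ratios hold treatment, dye and plot together, and the 10 arrays share 8 pools, so these likenesses are a description with no test.

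**Figure D5:**
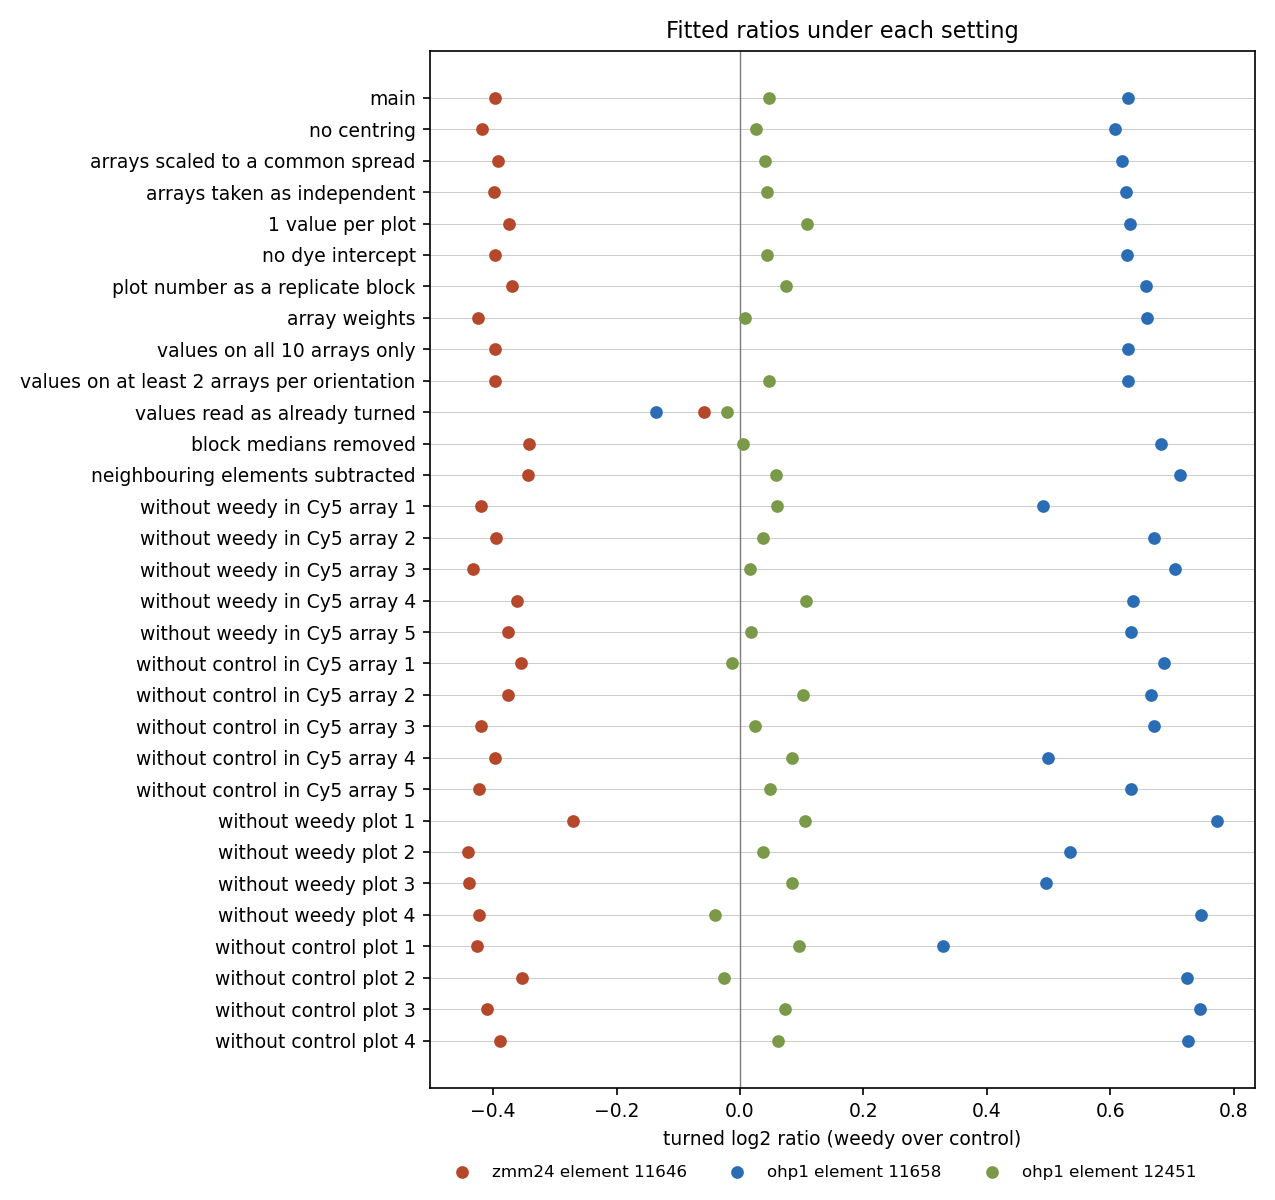
Fitted turned log2 ratio (weedy over control) of the zmm24 and ohp1 elements under the main fit and each other setting, 1 row per setting. The zmm24 values lie between -0.44 and -0.27 in every setting but the reading as already turned, where it is -0.058, and ohp1 element 11658 stands at 0.33 without control plot 1.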

How the data were processed

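RNA of pooled leaf was compared on 10 arrays with 2 colours. The log2 values were deposited by the authors as 1 log ratio per element and array. Log base, numerator channel, scanner, background correction, filters and normalization are not stated in the sources read here. Base 2 was assumed; natural logs would change all sizes by 1 common factor. Per the labels, the dyes were Cy5 and Cy3, while the labelling protocol names an Alexa Fluor kit. The number of arrays limits the precision.

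Arrays were centred on their medians. The model for each element, a generalised least squares fit, held treatment, a dye intercept and the 8 plots as a random effect, and needed 4 arrays or more per orientation (plot to array variance ratio 0.0347). The eBayes step of limma 3.58.1 (R 4.3.3) moderated the variances, and the Benjamini-Hochberg method over 16201 elements gave adjusted p, called at 0.05. The fit was also run on data simulated from the same model, which checks the code and not the model's assumptions.

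Genes were named through the platform annotation, with synonyms from a RefSeq table matched for 562 of 583 genes. The named genes were the chosen pair, all genes of the MADS box and bZIP lists, up to 3 of the storage list, and the 3 most alike and 1 least alike gene of each of the pair. Genes, lists and settings were chosen with earlier results of these data known. Same-numbered weedy and control plots had correlations of -0.499, 0.129, -0.541 and 0.140 between their fitted effects over elements. Differently numbered ones ran from -0.537 to 0.654. Plots that share arrays have linked errors in that fit, so these values could not decide on a pairing. The main fit did not pair the plots by number. Replicates are plots, each 1 pool, but SEs and p-values of the main fit reflect mostly the spread between arrays. The plot to array variance ratio of 0.0347 served all elements, so a larger spread between plots at a single element was not modelled. The fit for zmm24 had 8 residual degrees of freedom from 10 arrays. Elements at an unadjusted p under 0.05 numbered 1964 of 16201. They were 2270 with arrays taken as independent and 208 of 13825 with 1 value per plot.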

Additional observations from a re-analysis of the deposited data

Results flagged for a closer look

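In ohp1 element 11658, array 4 with control leaf in Cy5, which sets weedy plot 3 against control plot 1, had a turned log2 ratio of 1.94, far above the next of its orientation at 0.75. The gap was 0.713 of the range, just past the critical value of 0.71 for 5 arrays. The array with control plot 1 in Cy3 was also the highest of its orientation, at 1.58.

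Array 3 with weedy leaf in Cy5 lacked a value at 5453 elements, against at most 1972 on the others of its orientation. Array 5 with control leaf in Cy5 lacked 9235, against at most 2967, and it is the array without a value for ohp1 element 12451. These were 3 of 8 checks, and about 1 in 20 such checks would be met by chance.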

How the results depend on the processing

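The ratio of zmm24 kept its negative sign in 30 of 30 alternatives, and that of ohp1, as the mean of its elements, kept its positive sign in 29 of 30. The exception was the reading as already turned, which exchanges the treatment and dye terms: ohp1 stood there at -0.11 and zmm24 at -0.058. The value of -0.058 for zmm24 had an SE of 0.09. Leaving out single arrays or plots, zmm24 ranged from -0.44 to -0.27 and ohp1 from 0.25 to 0.50. Both genes were chosen on this contrast, and zmm24 was negative on 10 of 10 arrays. Its sign could thus hardly change when arrays or plots were left out, and these counts of signs are no test. Element 12451 changed sign in 4 of 29 alternatives. The dye terms of the 3 elements did not pass in any alternative in which they were tested, with limma adjusted p from 0.685 to 0.966 for zmm24, 0.600 to 0.984 for element 11658 and 0.812 to 0.999 for element 12451. On the reading as already turned no dye test is given, as that term is then the contrast on which the genes were chosen.

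A replicate block by plot number, a pairing on which the plots' correlations could not decide, gave -0.37 for zmm24 and 0.39 for ohp1. The 2 elements past the threshold over the whole array became 1 with arrays scaled to a common spread, 6 with array weights, 0 with 1 value per plot and 0 on the reading as already turned, and 0 to 4 after single arrays or plots were removed. Elements at an unadjusted p under 0.05 numbered 208 with 1 value per plot and 1183 with values on all arrays only, where 9486 were tested, and 817 to 2740 with an array or plot left out. Listed elements at that level were 0 of 25 with 1 value per plot and 1 of 26 on the reading as already turned. With an array or plot left out they were 1 to 8, where 26 or 28 were tested. Apart from the smaller number tested, the cause was not tested. Subtracting neighbours' means and adding listed symbols were chosen after seeing the data. Dim spots were not filtered, as no signal values were used here.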
